A study of Mus musculus with 768 samples.

Results

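Nes, Vim, Gfap, Des and Synm encode intermediate filament proteins, and their transcripts were followed through single cells sorted from the mouse dentate gyrus for the Nestin:GFP reporter. They are 5 of the 32679 genes counted and were chosen by name, with Nes as the gene whose regulatory sequence drives the reporter and the others as proteins known to share filaments with nestin. All 5 had counts. The tested mice were 4 male Nestin:GFP mice, 2 months old, that received a miR-132 mimic, a synthetic copy of a microRNA (mice 2, 4, 6 and 8). The other 4, of the same sex, age and reporter line, received a negative control oligonucleotide (mice 1, 3, 5 and 7). Both treatments were given at 150 pmol in 3 µl with the transfection reagent lipofectamine 2000, once a week for 5 weeks. Cells of mice 1 to 4 are dated 17 April and those of mice 5 to 8 are dated 19 April, with both treatments equally present on either day. The gate was set on green fluorescence, so the values describe reporter-positive wells and not the tissue, and the series text sets "AD" ahead of the tissue name, an abbreviation it does not spell out.

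Each mouse had 96 wells in the table. Of these, 675 in all had at least 50000 counts and at least 1000 genes with a count and were kept, and 93 were not. A mouse contributed 75 to 92 kept wells and 43889169 to 66897586 counts, with a median of 646537 counts per well. Levels are given as CPM, a gene's reads scaled to the total reads of the same wells. Clusters were formed without the 5 genes and named from marker genes that do not include them. This gave 4 large classes, with 72 pericyte-like, 107 endothelial-like, 96 astroglia-like and 296 oligodendrocyte-like wells. The 4 small classes had 12 smooth muscle-like, 16 fibroblast-like, 38 neuroblast-like and 18 oligodendrocyte precursor-like wells. Another 16 wells, 2 in every mouse, had more than 6000 genes each, and 4 wells stayed unnamed. The defining markers Vtn and Rgs5 had counts in all 72 pericyte-like wells, Cldn5 in all 107 endothelial-like wells and Acta2 in all 12 smooth muscle-like wells. Radial glia-like stem cells had no class of their own; of the stem cell markers, Hopx had counts in both of the astroglia-like clusters, while Rhcg and Wnt8b were at 0 in the class. The labels also hold a second map of wells to mice, which gives the same treatment for only 384 of the wells, so each comparison of treatments below rests on the map chosen. The maps agree on the mouse of only 96 wells. Comparisons of classes within a mouse therefore rest on the map too, and were not repeated with the second map.

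Intermediate filaments are the flexible cables of the cytoskeleton, built from rod-shaped proteins that pair and then pack side by side. Vimentin, desmin and glial fibrillary acidic protein (GFAP) can form filaments by themselves. Nestin and synemin cannot, and enter filaments by pairing with one of those partners. Nestin is best known from neural stem and progenitor cells and is also found in blood vessel walls, desmin marks muscle and the contractile cells around vessels, and GFAP marks astrocytes and radial glia.

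The mimic copies miR-132, and a seed match in a transcript is the plainest feature by which a member could differ from the others as a target. Mature miR-132-3p in RefSeq (GRCm38.p6, chr11:75173723-75173744, plus strand) is shown with its seed, bases 2 to 8, in capitals. The sense strand of the longest annotated 3′ UTR of each member was searched for the complement of the seed, GACTGTT, in GENCODE M21 (GRCm38). Nes (421 bases of 3′ UTR), Vim (342), Gfap (1341) and Des (1529) held none, and Synm held 2 in 3276 bases. Both Synm matches are shown with the match in capitals, and neither is followed by an A. Over all 20815 genes with a 3′ UTR, of median length 976 bases, 10.8% held at least 1 such match. This share is not matched to the members for length. A match is a description of the letters and not evidence of a site in use.
mmu-miR-132-3p: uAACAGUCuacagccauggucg
Synm, chr7:67730412-67730436, minus strand: agcccggaaGACTGTTgtcagcagg
Synm, chr7:67730210-67730234, minus strand: ggagtgggtGACTGTTcgtctgtct

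The 5 genes fell into different classes of sorted cells. Nes was at its highest in pericyte-like wells, Vim and Des in smooth muscle-like wells, Gfap in astroglia-like wells and Synm in endothelial-like wells. Of 30 comparisons of a gene between 2 of the 4 large classes, 20 passed an exact paired sign-flip permutation test over mice (two-sided, Benjamini-Hochberg over the 30, threshold 0.05). In 17 of these 20 every mouse pointed the same way, and their adjusted p was 0.026 unless another is given. The count was 19 to 21 with mouse 1, 2, 3 or 7 left out and 0 with mouse 4, 5, 6 or 8 left out, which ends all of these calls. With 8 mice the smallest possible raw p is 0.0078, and with 7 mice, as in all comparisons with endothelial-like wells, it is 0.0156. Leaving out any of mice 2 to 8 takes a mouse from every comparison and so raises this smallest p. Its part in the lost calls was not tested.

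**Figure D1:**
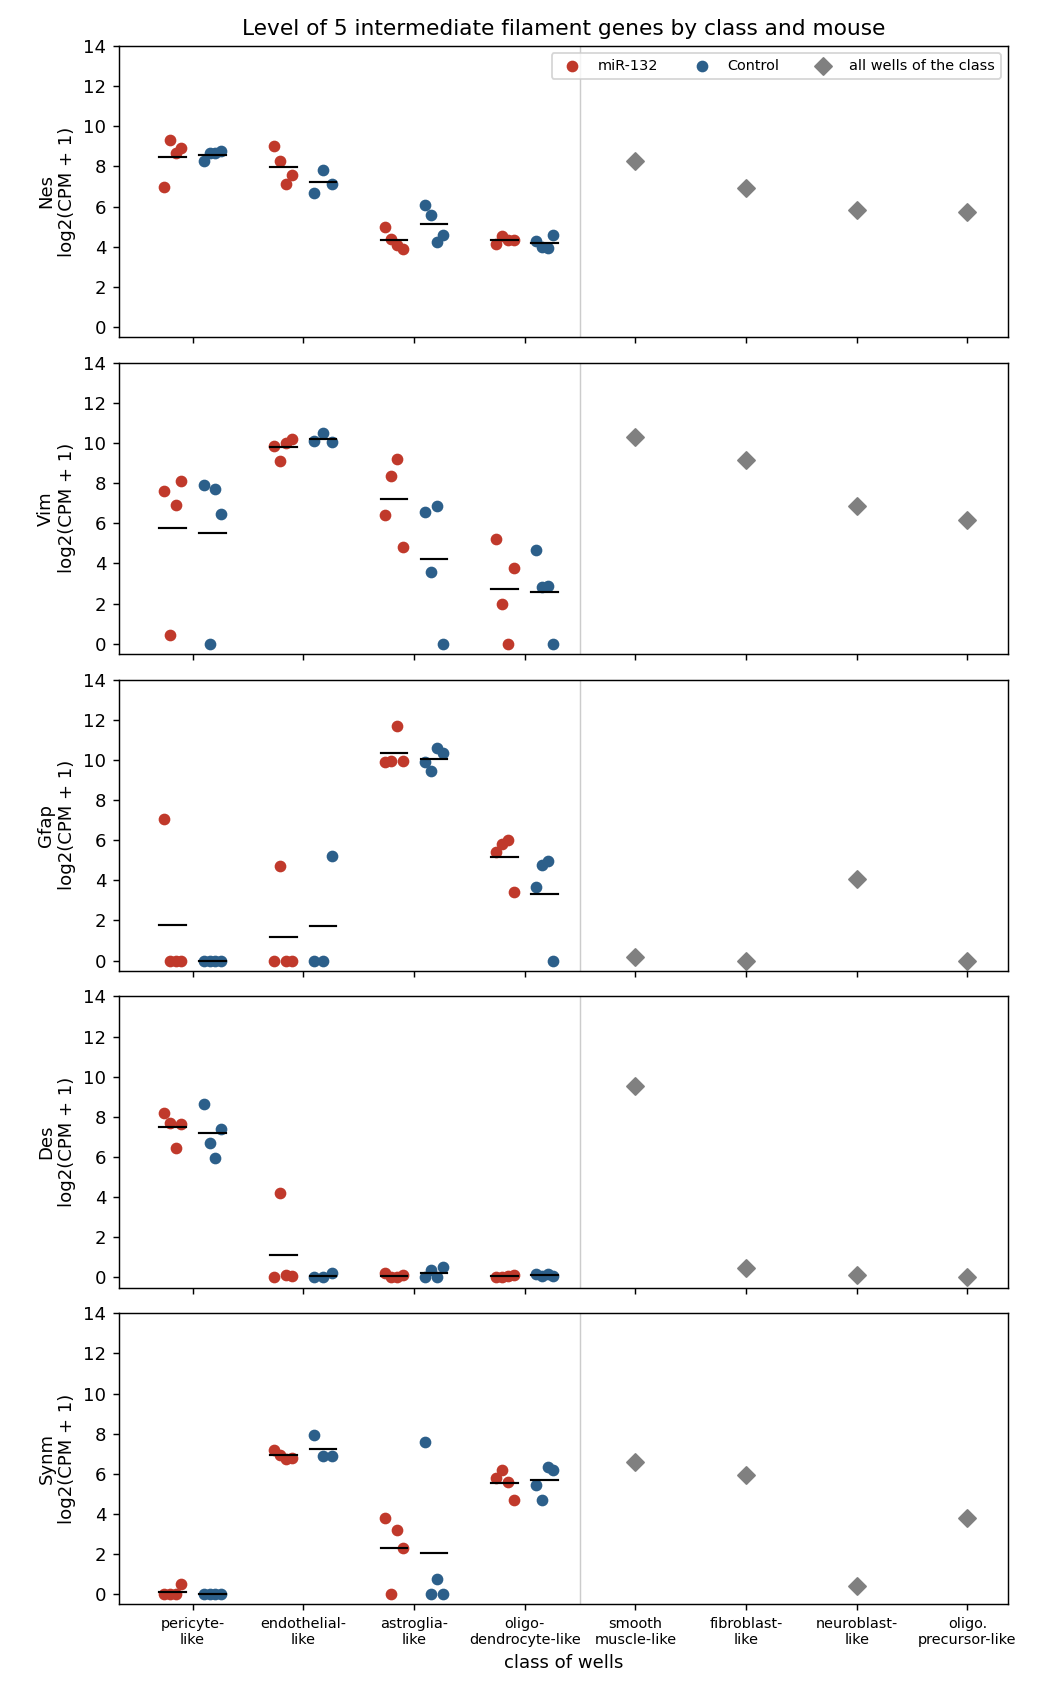
Level of each gene, as log2(CPM + 1), by class of wells. Points are single mice with at least 5 wells of the class (miR-132 mimic in red, control in blue), black lines are means of the points, and grey diamonds are all wells of a small class together. Nes points of pericyte-like and endothelial-like wells overlap and lie above those of astroglia-like and oligodendrocyte-like wells. Gfap points are highest in astroglia-like wells, and Synm points of pericyte-like wells lie at or near 0.

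Nes encodes nestin (ENSMUSG00000004891.16, mm10 chr3:87971078-87980451, plus strand). In pericyte-like wells, the cells that wrap capillaries, it stood at 123, 628, 408 and 482 CPM in mimic mice 2, 4, 6 and 8, against 306, 408, 404 and 429 CPM in control mice 1, 3, 5 and 7. Every one of the 72 wells had Nes counts, and all 72 still did after each well was thinned to 50000 counts. No other large class reached this in any gene. The lowest well had 5.48 CPM, the median well 286 CPM and the highest 1658 CPM.

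Endothelial-like wells, the lining of vessels, came next for Nes, with 102, 186 and 519.6 CPM as the lowest, median and highest of 7 mice. Only 66 of 107 of these wells had a count (61.7%, exact 95% interval 51.8 to 70.9), and the median of those 66 was 208 CPM. The mean difference of pericyte-like minus endothelial-like was 0.91 ± 1.37 on the log2(CPM + 1) scale (SD, n = 7 mice, higher in 6 of 7). It did not pass the exact permutation test (adjusted p = 0.176), but the mean over single wells, which gives weight to wells at 0, differed by 3.27 and passed (adjusted p = 0.045, exact permutation test). Both vascular classes exceeded astroglia-like and oligodendrocyte-like wells in every mouse compared, 8 for pericyte-like and 7 for endothelial-like wells. The mean differences were 3.13 to 4.26. Mouse 1, with only 4 endothelial-like wells, was left out of the endothelial-like comparisons. Its Nes was 40.4 CPM in endothelial-like and 66.6 CPM in astroglia-like wells.

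In astroglia-like wells Nes ran from 13.9 to 66.6 CPM over 8 mice, with a median of 21.1 CPM, and in oligodendrocyte-like wells from 14.2 to 23.3 CPM, with a median of 18.8 CPM. These sums did not differ beyond their spread (0.45 ± 0.87 on the log2 scale, higher in 4 of 8 mice, adjusted p = 0.27, exact permutation test). The spread over wells, as counted, was unlike. Nes was found in 34 of 96 astroglia-like wells (35.4%), where it had a median of 44.2 CPM, and in 170 of 296 oligodendrocyte-like wells (57.4%), where the median was 23.4 CPM. After thinning, the shares were 31.25% of astroglia-like and 36.8% of oligodendrocyte-like wells. The oligodendrocyte-like share as counted therefore depended on depth. The pericyte gene Rgs5, at 6442 CPM in pericyte-like wells, stood at 0.039 CPM in oligodendrocyte-like wells, where Nes was at 18.1 CPM. The part of RNA from other cells in these Nes counts was not tested.

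The smaller classes also held Nes. Smooth muscle-like wells had it in 11 of 12 wells at 302 CPM, fibroblast-like wells in 10 of 16 at 122 CPM, neuroblast-like wells in 18 of 38 at 55.6 CPM and oligodendrocyte precursor-like wells in 12 of 18 at 52.8 CPM. In the neuroblast-like wells a single well supplied 32.5% of the Nes counts. These classes had too few wells per mouse for a test.

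**Figure D2:**
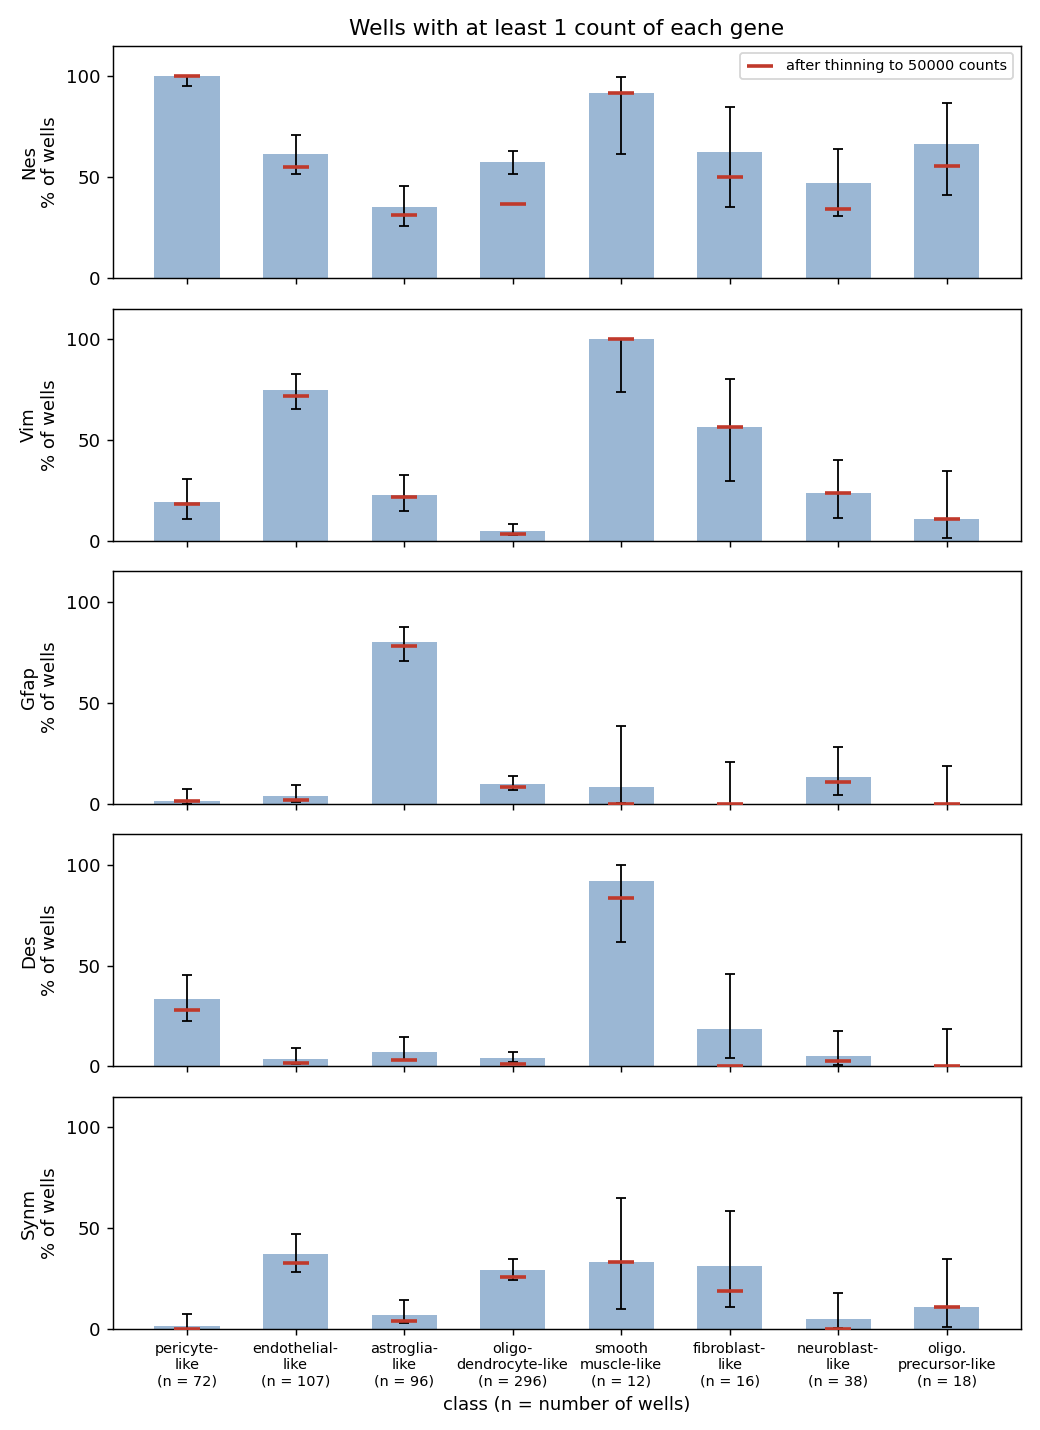
Share of wells with at least 1 count of each gene, in percent, by class. Bars are the shares as counted with exact 95% binomial intervals over wells, and red dashes are the shares after thinning each well to 50000 counts. Nes reaches all 72 pericyte-like wells, and the oligodendrocyte-like Nes share is 57.4% as counted and 36.8% thinned.

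Vim encodes vimentin, the partner nestin most often pairs with in developing cells (ENSMUSG00000026728.9, chr2:13573927-13582826, plus strand). It was highest in smooth muscle-like wells (1241 CPM, 12 of 12 wells) and endothelial-like wells, in which the lowest, median and highest of 7 mice were 548, 1047 and 1433 CPM. Fibroblast-like wells had 576 CPM. In endothelial-like wells 80 of 107 had a count (74.8%, exact 95% interval 65.4 to 82.7). The log2 difference of endothelial-like minus astroglia-like wells was 4.36 ± 3.30 and that of endothelial-like minus oligodendrocyte-like wells 7.59 ± 1.91 (SD, n = 7 mice). Pericyte-like minus endothelial-like wells gave -4.65 ± 3.30, and endothelial-like wells were the higher in 7 of 7 mice in all 3 comparisons.

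Pericyte-like wells, which all had Nes, mostly had no Vim. Vim was found in 14 of 72 (19.4%, exact 95% interval 11.1 to 30.5), and those 14 had a median of 741 CPM. The wells split into 58 with no Vim count and 14 with one, 12 of them above 50 CPM, and the median of the endothelial-like wells with a count was 1009.8 CPM. Per mouse the class stood at 0 to 272 CPM. The 14 wells with Vim had a mean of 1.86 of 8 endothelial and 1.79 of 6 smooth muscle markers, against 1.24 and 1.29 in the 58 wells without. The median summed level was 972 CPM of endothelial and 4184 CPM of smooth muscle markers in wells with Vim, against 1105 and 3025 CPM in wells without. Of 6 fibroblast markers a mean of 1.64 had a count in wells with Vim and 1.28 in wells without, with median summed levels of 229.7 and 550.1 CPM. The medians of total counts were 640266 and 619732. The part of these markers in the Vim counts was not tested.

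Astroglia-like wells had 0 to 592 CPM of Vim over 8 mice, with counts in 22 of 96 wells (22.9%) at a median of 509 CPM. This was above oligodendrocyte-like wells (3.05 ± 3.24 on the log2 scale, higher in 7 of 8 mice, the other being at 0 in both). The difference of pericyte-like minus astroglia-like wells was within the spread (-0.08 ± 4.42, adjusted p = 0.98, exact permutation test). Only 15 of 296 oligodendrocyte-like wells (5.07%) had Vim.

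**Figure D3:**
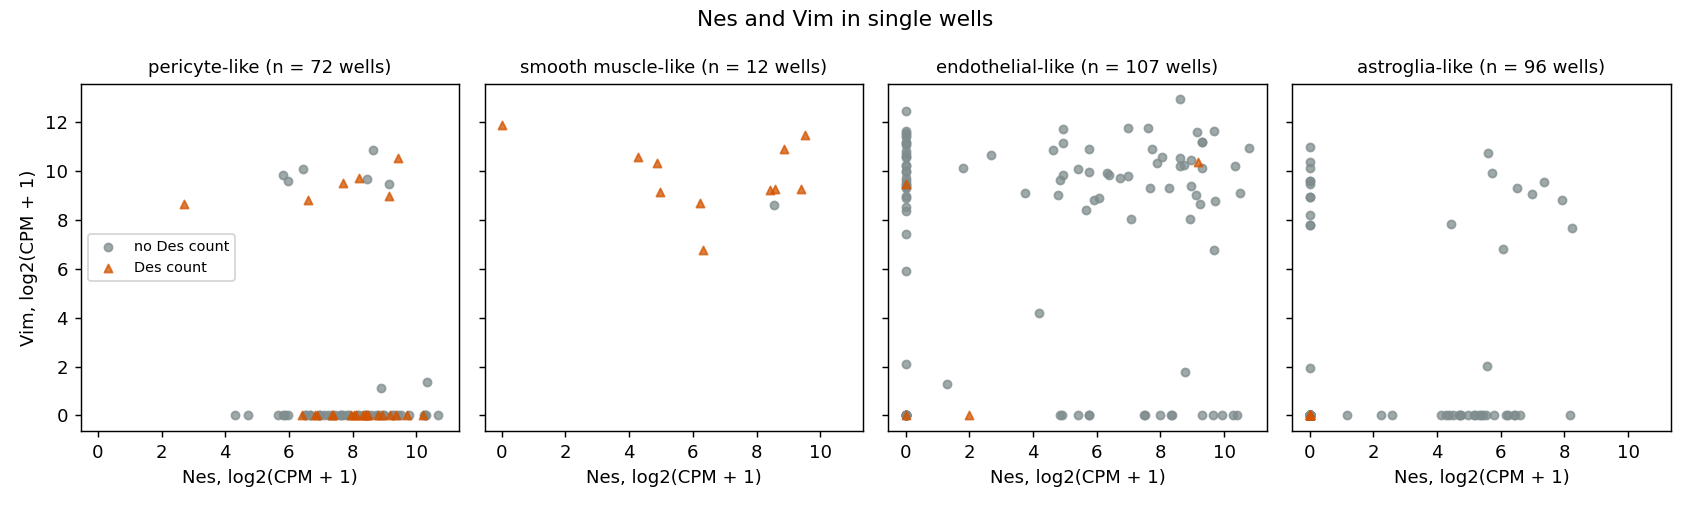
Nes against Vim, both as log2(CPM + 1), in single wells of 4 classes. Triangles are wells with a Des count. Most pericyte-like wells lie along the bottom with Nes and no Vim, all 12 smooth muscle-like wells have Vim, and endothelial-like and astroglia-like wells include some with Vim and no Nes.

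Gfap encodes GFAP (ENSMUSG00000020932.14, chr11:102887336-102900912, minus strand). In astroglia-like wells its lowest, median and highest mice were at 709, 980.4 and 3254 CPM, and 77 of 96 wells had counts (80.2%, exact 95% interval 70.8 to 87.6). It was above each of the other large classes in every mouse. The log2 difference was 5.96 ± 1.95 for astroglia-like minus oligodendrocyte-like, -8.84 ± 2.61 for endothelial-like minus astroglia-like and -9.33 ± 2.70 for pericyte-like minus astroglia-like wells (SD). Gfap was found in 1 of 72 pericyte-like and 4 of 107 endothelial-like wells. In fibroblast-like and oligodendrocyte precursor-like wells it was not detected (0 of 16 and 0 of 18 wells, which allows shares of up to 18.8% and 16.7% by the limit of 3 wells).

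Gfap also appeared in 29 of 296 oligodendrocyte-like wells (9.80%), at a median of 339 CPM where present. The class stood at 29.5 ± 22.3 CPM (SD, n = 8 mice) and was higher than pericyte-like wells in 6 of 8 mice, with 1 mouse equal (adjusted p = 0.047, exact permutation test; 0.085 with a pseudocount of 10). The 29 wells had a mean of 1.38 of 8 astrocyte markers with a count and a median of 109 CPM summed over the 8, against 1.05 markers and 4.71 CPM in the 267 wells without Gfap. The part of other astrocyte RNA in these wells was not tested.

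Des encodes desmin, the filament protein of muscle (ENSMUSG00000026208.9, chr1:75360329-75368579, plus strand). Smooth muscle-like wells had 751 CPM, with counts in 11 of 12 wells. In pericyte-like wells it was 291, 203, 85.5 and 201 CPM in mimic mice 2, 4, 6 and 8, against 404, 103, 60.6 and 169 CPM in control mice 1, 3, 5 and 7. Pericyte-like wells exceeded the 3 other large classes in every mouse, with mean differences of 6.48 to 7.25 on the log2 scale. Those classes stood below 1 CPM in all but mouse 4, where endothelial-like wells had 17.4 CPM. A minority of wells carried it: 24 of 72 pericyte-like wells had a count (33.3%, exact 95% interval 22.7 to 45.4), and these had a median of 488 CPM.

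Of 6 smooth muscle markers a mean of 1.46 had a count in the 24 pericyte-like wells with Des and 1.35 in the 48 without, with Cnn1 at 0 in all 24. Their median summed level was 3770 CPM in wells with Des and 2932 CPM in wells without, and its part in the Des counts was not tested. Of 8 pericyte markers a mean of 7.75 had a count in each. The limit on genes per well bears on this gene more than on the others. Of all Des counts in the table, 38.9% lay in the 93 wells that were not kept, 6 of which had at least 100 Des counts with 432 to 777 genes per well. Those 6 wells together had 45653 CPM of Rgs5, 2990.3 CPM of Vtn and 4056 CPM of Acta2. For the other 4 genes the share of counts in wells not kept was 5.55 to 17.9%.

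Synm encodes synemin, which like nestin depends on a partner and links filaments to attachment sites in muscle (ENSMUSG00000030554.16, chr7:67730160-67759742, minus strand). Its levels in endothelial-like wells were 106, 116 and 240.6 CPM in the lowest, median and highest of 7 mice. In oligodendrocyte-like wells they were 24.6, 51.1 and 80.9 CPM over 8 mice. Endothelial-like wells were higher in 7 of 7 mice, by 1.40 ± 0.96 on the log2 scale. The mean over single wells did not pass (adjusted p = 0.064, exact permutation test). Counts were present in 40 of 107 endothelial-like wells (37.4%) and 87 of 296 oligodendrocyte-like wells (29.4%).

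Pericyte-like wells were almost without Synm, with 4 counts in 1 of 72 wells, although they carried more Nes than any other large class. The difference from oligodendrocyte-like wells was -5.56 ± 0.78 and from endothelial-like wells -6.98 ± 0.50 on the log2 scale. Astroglia-like minus oligodendrocyte-like wells gave -3.42 ± 2.85 (adjusted p = 0.037, exact permutation test; 0.070 with a pseudocount of 10). Smooth muscle-like wells had it in 4 of 12 wells at 93.9 CPM. In astroglia-like wells 7 of 96 had a count, and 1 well of control mouse 1 gave 69.1% of the class's Synm counts. Exons of Synm overlap exons of Ttc23 and Gm45102 on the other strand, and the library method does not mark strand, so the Synm counts are uncertain by that much.

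Levels of different genes were compared only per kilobase of exon, as CPM per kb of the class. In pericyte-like wells Nes led with 63.8 CPM per kb, followed by Des with 48.9 and Vim with 32.01. In endothelial-like wells Vim led with 217.9 CPM per kb, ahead of Nes with 31.4 and Synm with 16.8. Smooth muscle-like wells held Vim at 261.7, Des at 199.9 and Nes at 47.1 CPM per kb. In astroglia-like wells Gfap stood at 304.5, Vim at 28.04 and Nes at 4.25 CPM per kb. Oligodendrocyte-like wells had less than 7 CPM per kb of every member, led by Gfap at 6.99 and Synm at 6.53.

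The genes found together in 1 well followed the same lines. In pericyte-like wells 38 of 72 had Nes alone among the 5, 18 had Nes with Des, 8 had Nes with Vim and 6 had all 3. In endothelial-like wells 27 of 107 had Nes with Vim, 20 had Nes, Vim and Synm, 19 had Vim alone and 8 had none. Vim was present in 50 of the 66 endothelial-like wells with Nes (75.8%) and in 30 of the 41 without (73.2%). In astroglia-like wells 32 of 96 had Gfap alone, 17 had Gfap with Nes, 9 had Gfap with Vim and 9 had all 3. Among oligodendrocyte-like wells 100 of 296 had Nes alone, 66 had none and 44 had Nes with Synm. Wells at 0 can also be wells in which a transcript was missed.

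The astroglia-like class joined 2 clusters that differed in Nes and Vim. The cluster of 35 wells led by Ephx2, Mt3 and Hopx had 61.5 CPM of Nes, against 10.1 CPM in the other 61 wells. Hopx, a gene of quiescent neural stem cells that astrocytes also express, had counts in 21 of 35 wells of this cluster at 76.1 CPM, and in 28 of 61 wells (45.9%) of the other at 30.2 CPM. A few wells carried much of the Nes: counts were present in 15 of 35 wells (42.9%) and in 19 of 61 (31.1%), and 1 well gave 26.4 to 88.35% of the astroglia-like Nes counts of a mouse. Nes was higher in the Ephx2-led cluster in 5 of the 6 mice with at least 3 wells in each. It stood there at 71.4 and 31.3 CPM in mimic mice 2 and 6 and at 121, 139.7, 36.04 and 21.5 CPM in control mice 1, 3, 5 and 7. Vim was also higher there in 5 of 6 mice, with control mouse 7 at 0 in both, and stood at 271 CPM against 63.8 CPM over all wells. Gfap, itself among the 10 leading genes of the Ephx2-led cluster, was higher in 4 of 6 mice. In the other cluster Nes did not exceed 23.7 CPM in any mouse. The clusters were formed from the same libraries and compared after their values were seen, so these are descriptions with no test. Astroglia-like wells with a Vim count had a mean of 1.5 of 7 stem cell markers, against 0.61 in wells without Vim, with Rhcg, Wnt8b and Notum at 0 in the wells with Vim.

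**Figure D4:**
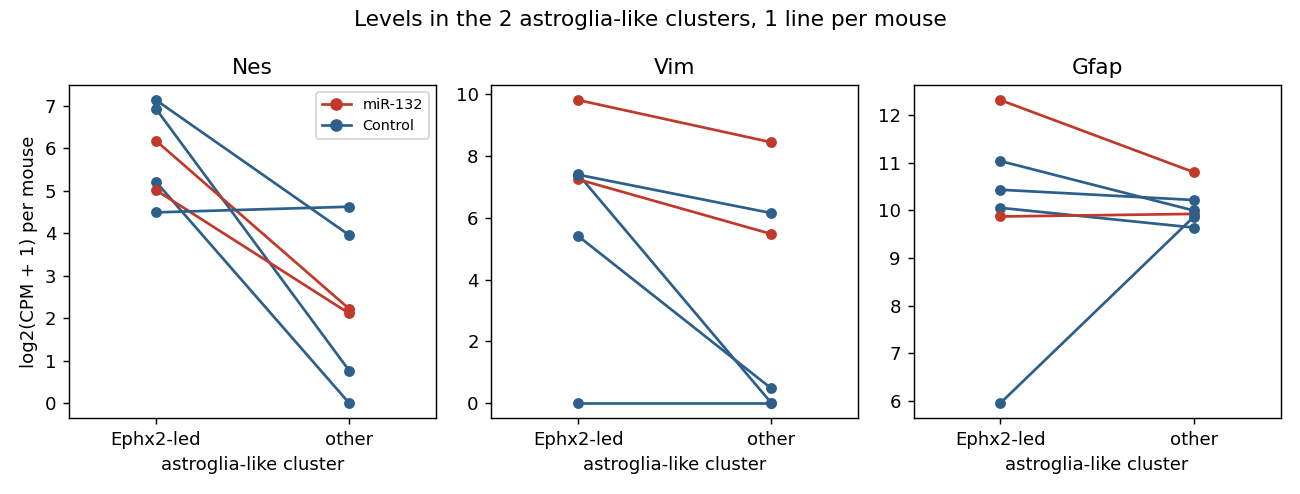
Nes, Vim and Gfap, as log2(CPM + 1) per mouse, in the Ephx2-led astroglia-like cluster and the other astroglia-like cluster. Each line is 1 of 6 mice with at least 3 wells in both (miR-132 mimic in red, control in blue). For Nes, 5 of the 6 lines fall to the right.

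Other genes of the same cytoskeleton, taken from 4 lists, had their own classes. Of 17 further intermediate filament genes, 8 had counts in at least 10% of the wells of some class, and none of the 8 was at its highest in pericyte-like or endothelial-like wells. Lmna, which encodes a lamin of the nuclear envelope, stood at 543 CPM in smooth muscle-like and 375.1 CPM in pericyte-like wells. Bfsp2, known from the lens, had 220.4 CPM in oligodendrocyte-like wells, with counts in 55.7% of them, and 264 CPM in oligodendrocyte precursor-like wells. Iffo1 had 152.5 CPM in oligodendrocyte precursor-like wells. Of the neuronal filament genes, named here after their values were seen, Nefl, Nefm and Prph were below 1 CPM in each of the 8 classes, Nefh reached 8.84 CPM in astroglia-like and 3.45 CPM in neuroblast-like wells, and Ina reached 36.9 CPM in neuroblast-like wells.

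Among 15 linkers and chaperones, which tie filaments to membranes or keep proteins folded, 14 passed the same limit and 5 were highest in smooth muscle-like wells. Cryab, a small heat shock protein that binds desmin and GFAP filaments, had 3213 CPM in oligodendrocyte-like wells, with counts in 99.7% of them. Utrn (utrophin) and Dmd (dystrophin) had 1998 and 1286 CPM in smooth muscle-like wells, and 977 and 1110.4 CPM in pericyte-like wells. Among 14 kinases and proteases that act on filaments, Pak1 (381 CPM) and Cdk5 (224 CPM) led in oligodendrocyte-like wells and the protease gene Capn2 (199.8 CPM) in endothelial-like wells. Of 14 transcription factors, 6 were highest in neuroblast-like wells, led by Nfix (1822 CPM), Nfib (1755 CPM) and Sox11 (1089 CPM), the last of which also served to name that class.

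Genes with the pattern most like each member were taken as the 5 with the highest Pearson r over 34 sums of 1 class in 1 mouse (5 classes, 13955 genes compared). The points share libraries and depth, so r is given as a description. Nes was nearest to Isyna1, Rgs5, Ebf1, Slc22a8 and Arhgdib (r = 0.926 to 0.913), of which Rgs5 is a pericyte marker used for naming. Des was nearest to Perp, Enpep, Art3, Ndufa4l2 and Abcc9 (r = 0.984 to 0.972), the last pair of which are pericyte markers used for naming. Gfap was nearest to Npas3, S100b, Cspg5, E330013P04Rik and Ppp1r3c (r = 0.899 to 0.869). Synm was nearest to Thsd1, Tanc1, Cd59a, Grasp and Efna1 (r = 0.884 to 0.832), and Vim to Itih5, Ucp2, Ccnd3, Plec and Ctnna1 (r = 0.797 to 0.741). Between members, r was 0.706 for Nes and Des, 0.375 for Nes and Vim, -0.146 for Nes and Synm and -0.609 for Nes and Gfap.

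The comparison of mimic with control mice asked whether receiving the miR-132 mimic went with a change in these genes. No member was called by edgeR's quasi-likelihood test on sums per mouse in any set of wells where it passed the count filter. The test called 0% of genes in each set. Members below the filter in a class were not tested there. Over all kept wells Gfap was the member with the largest difference, with 245, 113, 448 and 152 CPM in mimic mice 2, 4, 6 and 8, against 68.8, 126, 111 and 151 CPM in control mice 1, 3, 5 and 7. Mimic mice 2 and 6 stood above every control mouse and mice 4 and 8 within or at the edge of the control range. The difference was 1.02 ± 0.36 on the log2 scale (SE; edgeR's quasi-likelihood test, p = 0.016, Benjamini-Hochberg adjusted p = 0.9995 over 8829 genes). It was 0.83 among the mice of 17 April and 1.00 among those of 19 April. Without a filter on low counts the same test gave 1.01 and an adjusted p of 0.026 for Gfap. That setting called 84 of 31906 genes, Gfap among them, against 0 of 8829 with the filter. With the filter but without mouse 6 the difference was 0.60. DESeq2 gave 1.02 with an adjusted p of 0.464, and with wells assigned by sample title the difference was 0.10.

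**Figure D5:**
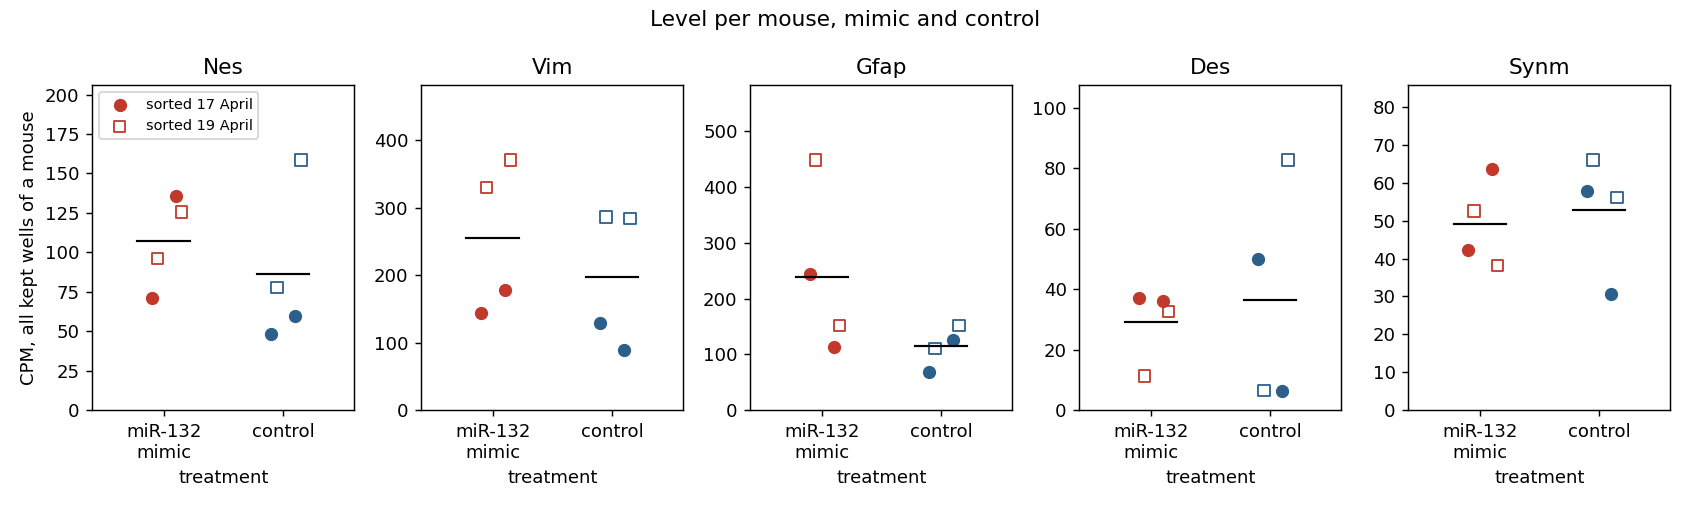
CPM of each gene over all kept wells of a mouse, with 4 miR-132 mimic mice in red left of 4 control mice in blue. Filled circles were sorted on 17 April and open squares on 19 April, and black lines are group means. The groups overlap for every gene, and all 4 Vim squares lie above all 4 Vim circles.

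The make-up of the sorted wells moved beside this Gfap difference. Astroglia-like wells were 16.5 ± 5.68% of kept wells in mimic mice and 11.7 ± 4.52% in control mice (SD, n = 4 each). All 8 astrocyte markers had a higher mean in mimic mice, and their summed level was 2503 to 7806 CPM in mimic mice and 2750 to 5233 CPM in control mice. Their part in the Gfap difference was not tested. Within astroglia-like wells Gfap was 956, 983, 3254 and 978 CPM in mimic mice 2, 4, 6 and 8, against 940.1, 709, 1543 and 1281 CPM in control mice 1, 3, 5 and 7. Mouse 6 stood apart and the other 3 mimic mice lay within the control range. The difference was 0.33 ± 0.34 on the log2 scale (SE; edgeR, adjusted p = 0.999) and -0.13 without mouse 6. In oligodendrocyte-like wells, where Gfap was below the count filter, it was 40.9, 55, 62.7 and 9.83 CPM in mimic mice 2, 4, 6 and 8, against 11.5, 25.9, 30.5 and 0 CPM in control mice 1, 3, 5 and 7. Mimic mice 2, 4 and 6 stood above every control mouse and mouse 8 did not. Thinned, 11.35 ± 2.83% of these wells had Gfap in mimic mice and 4.95 ± 3.68% in control mice (SD, n = 4 each). Without the filter the difference was 1.29 ± 0.60 on the log2 scale (SE; edgeR, p = 0.032, adjusted p = 0.917).

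Nes over all kept wells was 71.2, 136, 96.2 and 125 CPM in mimic mice 2, 4, 6 and 8, against 48.4, 59.5, 77.7 and 159 CPM in control mice 1, 3, 5 and 7. The groups overlapped, and the difference was 0.40 ± 0.32 on the log2 scale (edgeR, adjusted p = 0.9995). It was 0.86 among the mice of 17 April and -0.02 among those of 19 April, and 0.10 without mouse 4, and it turned to -0.31 with wells assigned by sample title. Within classes it was 0.05 ± 0.58 in pericyte-like, 0.64 ± 0.65 in endothelial-like, -0.88 ± 1.25 in astroglia-like and 0.11 ± 0.47 in oligodendrocyte-like wells (edgeR, adjusted p at least 0.999 in each). The endothelial-like value was -0.15 without control mouse 3, and the pericyte-like value -0.53 without mouse 4.

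Vim over all kept wells was 144, 178, 330.4 and 371 CPM in mimic mice 2, 4, 6 and 8, against 129, 88.6, 287 and 285 CPM in control mice 1, 3, 5 and 7. The difference was 0.40 ± 0.19 on the log2 scale (edgeR, p = 0.061, adjusted p = 0.9995). Within each date both mimic mice stood above both control mice, by a mean of 0.57 on 17 April and 0.29 on 19 April, while over both dates the groups overlapped. With wells assigned by sample title it turned to -0.39. Endothelial-like wells, which held 62641 of 100249 Vim counts of the kept wells, were 19.5 ± 8.31% of wells in mimic mice and 12.1 ± 7.65% in control mice, and all 8 endothelial markers had a higher mean in mimic mice. Their part was not tested. Within endothelial-like wells the difference was -0.31 ± 0.28, in pericyte-like wells -0.06 ± 1.85 and in astroglia-like wells 2.14 ± 1.49 (edgeR, adjusted p at least 0.999 in each).

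The astroglia-like Vim values were 85.5, 323, 592 and 26.9 CPM in mimic mice 2, 4, 6 and 8, against 92.5, 10.7, 117 and 0 CPM in control mice 1, 3, 5 and 7. Mimic mice 4 and 6 were above all controls and mimic mice 2 and 8 were not. The difference was 0.90 without mouse 6, 3.495 without control mouse 5 and 0.12 with wells assigned by sample title. Thinned, 33.3 ± 25.7% of astroglia-like wells had Vim in mimic mice and 12.6 ± 12.1% in control mice (SD, n = 4 each; exact permutation test over 70 splits, p = 0.2, adjusted p = 1 over 16 shares).

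Des and Synm did not differ beyond the spread between mice. Des over all kept wells was 37.2, 36, 11.3 and 32.7 CPM in mimic mice 2, 4, 6 and 8, against 49.9, 6.40, 6.58 and 82.8 CPM in control mice 1, 3, 5 and 7, with the mimic mice inside the range of the controls. The difference was -0.35 ± 0.78 on the log2 scale (edgeR, adjusted p = 0.9995), and 0.84 without control mouse 7. In pericyte-like wells it was 0.03 ± 0.85.

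Synm, the member with 2 seed matches shown above, was 42.3, 63.6, 52.6 and 38.2 CPM in mimic mice 2, 4, 6 and 8, against 57.96, 30.6, 66.02 and 56.2 CPM in control mice 1, 3, 5 and 7. The difference was -0.12 ± 0.32 on the log2 scale over all kept wells, -0.11 ± 0.48 in oligodendrocyte-like wells and -0.36 ± 0.57 in endothelial-like wells (edgeR, adjusted p at least 0.999 in each). With wells assigned by sample title it turned to 0.59 over all kept wells. In endothelial-like wells it was 147, 123, 106 and 109.8 CPM in mimic mice 2, 4, 6 and 8, against 240.6, 116.1 and 116.4 CPM in control mice 3, 5 and 7.

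These results stand against few calls in the whole table. With edgeR 0 of 8829 genes were called over all kept wells (0%), and 0 were called in each class. Over all kept wells 394 of the 8829 had an unadjusted p under 0.05. That share is itself under 0.05, the share that a test reaches when nothing differs. DESeq2 called 12 genes over all kept wells (0.136%) and 0.0403% of genes in oligodendrocyte-like, 0.448% in astroglia-like, 0.564% in endothelial-like and 0.467% in pericyte-like wells, with no member among them. In none of 16 combinations of a member and a set of wells did mimic and control mice separate without overlap, where 2.33% of all genes tested did so over all kept wells, and 2.59% in oligodendrocyte-like, 3.02% in astroglia-like, 6.14% in endothelial-like and 2.52% in pericyte-like wells. For the share of wells with a count, none of 15 exact permutation tests had a p under 0.05; the last of the 16 shares, Nes in pericyte-like wells, was 100% in every mouse and could not differ. The treatment difference was also compared between pairs of classes for Nes, Vim and Synm, and none of 10 exact permutation tests had a p under 0.05.

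Neither was any gene of the 4 lists called. Of the further intermediate filament genes 4 of 17 were tested and 3 were higher, with a median difference of 0.29 on the log2 scale, beside 0.0004 for all genes. Of the linkers and chaperones 12 of 15 were tested and 8 were higher (median 0.16), led by Plec, which encodes the linker plectin (0.73 ± 0.30, p = 0.032), Dst (-0.33 ± 0.17, p = 0.076) and Macf1 (0.28 ± 0.19, p = 0.171). Of the kinases and proteases 7 of 14 were tested and 4 were higher (median 0.14), with Cdk5 at -0.23, Capn2 at 0.20 and Pak1 at -0.14. Of the transcription factors 10 of 14 were tested and 5 were higher (median 0.01), with Pou3f2 at 1.13 ± 0.63, Stat3 at 0.43 ± 0.25 and Nfix at -0.45 ± 0.27. Lmna (0.41), Iffo1 (0.39) and Krt10 (-0.32) led the filament list. All had an adjusted p of 0.9995 (edgeR).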

How the data were processed

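The authors deposited 1 table of whole-number read counts per gene and well, from Smart-seq2 libraries, a full-length method with no molecular identifiers and no strand mark, per the labels' protocols. The build mm10 and the tools STAR, featureCounts 1.5.1 of Subread, Seurat 2.3.1 and FastQC are named in the submitters' processing notes; settings are not given in the sources used here. The 5 members and all lists were chosen with earlier results of these data known. Wells went to the mouse of the samples whose descriptions list them, which is 1 mouse for all 768 names; the map by sample title agrees on the mouse of 96 wells and is an alternative.

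Wells were kept with at least 50000 counts and 1000 genes with a count. Leiden clusters (resolution 1) came from logged counts per 10000 of 2000 variable genes, the 5 members left out, with 15 neighbours on 20 principal components. Software was scipy 1.17.1, pandas 2.3.3, scanpy 1.11.5 with igraph 0.11.9 and anndata 0.12.19, matplotlib 3.10.9 and numpy 2.4.6 under Python 3.11.15. Clusters were named from marker lists, with a marker detected when at least 25% of wells had it; astrocyte and stem cell lists together gave astroglia-like. The limit of 6000 genes was set after seeing the data. No doublet caller was run on sorted wells.

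Counts were summed per mouse, the replicate, and CPM taken from the sums. Treatments were compared with edgeR 4.0.16 in R 4.3.3 (quasi-likelihood test, TMM, filterByExpr and a count in 10% of wells, sort date as covariate, two-sided, Benjamini-Hochberg over all genes tested, threshold 0.05), with DESeq2 1.42.0 as an alternative. Class sums needed at least 5 wells per mouse, and log2 values use a pseudocount of 1, which understates differences of low genes. A class was tested with at least 3 mice of each treatment. Shares were compared after thinning wells to 50000 counts. Intervals are exact binomial at 95%, the limit for a count of 0 is 3 wells of the total, and both cover counting error only. The tests were checked on simulated data. Genes named beside the members are the 3 of smallest p per list and the 3 of highest CPM in any class. Positions are from GENCODE M21, in which 31011 of 32679 symbols were found.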

Additional observations from a re-analysis of the deposited data

Results flagged for a closer look

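Gfap in the astroglia-like wells of miR-132 mouse 6 was 3254.3 CPM, far from the other 3 mimic mice, which stood between 956 and 983 CPM. It was the only 1 of 29 groups of 4 mice checked in which a mouse stood apart by Dixon's criterion, which chance meets in about 1 of 20 groups.

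The members also had counts in the 93 wells left out of every comparison. These wells held 4862 counts of Nes in 10 wells, 7224 of Vim in 11 wells, 16785 of Gfap in 13 wells, 9324 of Des in 25 wells and 1270 of Synm in 7 wells. They are 10.3%, 6.72%, 17.9%, 38.9% and 5.55% of each gene's counts in the table. The 12 such wells with at least 100 counts of Gfap had 405 to 1457 genes with a count each, and the 6 with at least 100 counts of Des had 432 to 777.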

How the results depend on the processing

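Of the results that count calls, genes called by edgeR stayed at 0 in each set of wells with each mouse left out, without sort date, with other size factors (RLE) and with wells assigned by title. DESeq2 called 12 genes over all kept wells, 3 in oligodendrocyte-like, 34 in astroglia-like, 33 in endothelial-like and 25 in pericyte-like wells. In the same order, edgeR with no low-count filter called 84 of 31906, 19 of 24705, 2 of 20394, 8 of 19279 and 1 of 17053 genes. Gfap over all kept wells was the only member among these edgeR calls. The cause was not tested. The 20 class comparisons past the threshold became 19 to 21 under other scales, classes and resolutions, and 0 to 21 with 1 mouse left out. They were 0 without mouse 4, 5, 6 or 8. Fewer mice raise the smallest possible p, and its part in the lost calls was not tested. No paired analysis was possible because each mouse received 1 treatment and the labels pair no mice; this concerns mimic against control, while classes were paired within a mouse.

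Differences that turned their sign had not passed the test. Assigning wells by title gave log2 differences of -0.31 for Nes, -0.39 for Vim and 0.59 for Synm over all kept wells, -0.0406 (Nes) and 0.22 (Synm) in oligodendrocyte-like, 0.37 (Nes) in astroglia-like, -0.10 (Nes) and 1.04 (Synm) in endothelial-like and -0.20 (Nes) and -0.10 (Des) in pericyte-like wells. Without sort date the pericyte-like values were 0.0646 for Vim and -0.0482 for Des. In percentage points of wells, title assignment gave 0.324 (Nes), -4.06 (Vim) and 5.85 (Synm) over all kept wells, -23.5 (Vim) in pericyte-like, 11.9 (Synm) in endothelial-like, 0.374 (Nes), -3.12 (Vim) and 3.03 (Gfap) in astroglia-like and 1.98 (Synm) in oligodendrocyte-like wells. Without thinning, Vim in pericyte-like wells was -3.12 and Nes in oligodendrocyte-like wells 0.606; with at least 3 counts these were -4.55 and 5.88, and Nes over all kept wells 4.57. Between classes, the mean over wells gave -0.73 for Nes in astroglia-like minus oligodendrocyte-like and 0.0452 for Gfap in pericyte-like minus endothelial-like wells. Vim in pericyte-like minus astroglia-like wells was 1.05 with wells assigned by markers, 1.57 at resolution 0.5 and 0.14 with a pseudocount of 10.

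With each mouse left out, class differences ranged from -1.01 to 1.04 for Vim (pericyte-like minus astroglia-like), -1.66 to 0.39 for Gfap (pericyte-like minus endothelial-like), -0.13 to 0.63 for Des (endothelial-like minus astroglia-like) and -0.0166 to 0.72 for Des (endothelial-like minus oligodendrocyte-like). Treatment differences ranged from -0.82 to 0.84 for Des and -0.35 to 0.0430 for Synm over all kept wells, -0.00655 to 0.30 for Nes and -0.49 to 0.30 for Synm in oligodendrocyte-like, -0.13 to 0.54 for Gfap in astroglia-like, -0.15 to 1.07 for Nes in endothelial-like, and -0.53 to 0.38 for Nes, -1.07 to 2.00 for Vim and -0.33 to 0.66 for Des in pericyte-like wells. Shares ranged from -3.19 to 3.32 for Nes and -2.44 to 2.42 for Synm over all kept wells, -5.40 to 4.12 for Vim in pericyte-like, -6.85 to 4.37 for Vim in endothelial-like, -6.06 to 1.17 for Nes and -9.43 to 2.37 for Gfap in astroglia-like, and -4.39 to 1.16 for Nes and -5.57 to 1.95 for Synm in oligodendrocyte-like wells. Wells of 50000 counts resolve a transcript of about 20 CPM as a single count, so lower levels are often missed in single wells at that depth.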

Other observations

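Vim followed the date on the labels. Over all kept wells the 4 mice of 19 April had 285 to 371 CPM and the 4 mice of 17 April 88.6 to 178 CPM, with mimic and control mice in each. Endothelial-like wells were also more frequent on the later date, with 23, 23, 12 and 18 kept wells in mice 6, 8, 5 and 7 against 8, 13, 4 and 6 in mice 2, 4, 1 and 3. The relation between them was not tested.

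The 16 wells with more than 6000 genes, 2 per mouse, held Nes, Vim and Synm in all 16, Gfap in 13 and Des in 9, at 81.5, 156, 35.2, 109.6 and 25.2 CPM. The labels state 94 cells sorted per mouse and the table has 96 wells per mouse. Markers of several classes stood side by side in these wells, with Vtn at 4176 CPM and Cldn5 at 1051 CPM.

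Within oligodendrocyte-like wells, the cluster of 86 wells with Egr2, an immediate early gene, at 137 CPM had Nes at 20.1 CPM and Synm at 32.7 CPM, against 4.26 CPM of Egr2, 17.4 CPM of Nes and 58.97 CPM of Synm in the other 210 wells. In neuroblast-like wells, the 18 with Nes had a mean of 2.50 of 6 intermediate progenitor markers and the 20 without had 1.00. Of 8 astrocyte markers these wells had a mean of 2.83 and 2.05, with median summed levels of 1146 and 514 CPM, and their median total counts were 575841 and 512933.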
